A study of Mus musculus with 24 samples.

Results

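Transcripts of 9 genes of the transforming growth factor beta (TGF-beta) pathway were examined in ductal and stromal cells of the mouse liver: the ligands Tgfb1, Tgfb2 and Tgfb3, the receptors Tgfbr1, Tgfbr2 and Tgfbr3, the response genes Smad7 and Tgfbi, and Ltbp1, which holds the latent ligand in the matrix. The 9 genes were listed by name for their place in the pathway, with no threshold on a value, and all 9 were found among the 49568 genes of each expression table. The data comprised 24 samples in 2 experiments, each read by Smart-seq2 RNA sequencing of small numbers of cells sorted by flow cytometry.

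The homeostasis experiment held 12 samples from 3 untreated littermates of 12 weeks, of which mice A and E were male and mouse F was female. All 3 were heterozygous for the Pdgfra-H2BGFP knock-in (strain name B6.129S4-Pdgfratm11(EGFP)Sor/J) on a C57BL/6 background, in which a nuclear green protein made from 1 Pdgfra allele reports PDGFRα, so every group carried it. Cells of each mouse were gated as CD11b-CD45-CD31-, which is meant to leave out leukocytes and endothelium. Within that gate, EpCAM+ ductal cells (DCs, the cholangiocytes that line the bile ducts) and the PDGFRα+SCA1-, PDGFRα+SCA1+ and PDGFRα-SCA1+ fractions were sorted. The transwell experiment held 12 samples from wild-type C57BL/6 mice of 8 to 12 weeks, 2 in each of 6 groups. DCs were read when fresh (DC day 0), after 15 days as organoids in growth-factor rich expansion medium (EM organoid), and after 15 days in mesenchymal medium across a membrane from SCA1+ mesenchymal cells (co-cultured organoid). The SCA1+ mesenchymal cells, called SCA1+Msc here, were sorted on SCA1 without PDGFRα. They were read when fresh, after 15 days alone and after 15 days across from the DCs. Per the study's methods, the SCA1+Msc were first expanded for a week in mesenchymal medium before the DCs were added. In co-culture they thus spent a week longer in culture than the DCs. The expansion medium and the mesenchymal medium differed in growth factors, and organoids grown without SCA1+Msc in mesenchymal medium were not part of the data, so for organoids the medium and the neighbour cannot be told apart. The SCA1+Msc and the DCs of a culture came from different animals.

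As background, TGF-beta ligands are secreted as dimers folded with their own propeptide, which keeps them latent, and latent TGF-beta binding proteins such as LTBP1 tether that complex to the matrix until integrins, proteases or thrombospondin release the ligand. The free ligand binds TGFBR2, which phosphorylates TGFBR1, which in turn phosphorylates SMAD2 and SMAD3, while TGFBR3 (betaglycan) is a co-receptor that presents ligand, above all TGFB2. SMAD7 is an induced inhibitor that shuts the receptor down, and TGFBI is a secreted matrix protein named for its induction by TGF-beta. In the liver the pathway is known for holding back epithelial growth and for driving matrix production by mesenchymal cells.

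The libraries held from 19.3 to 28.0 M counted reads, with a median of 22.4 M in the homeostasis and 22.9 M in the transwell experiment. The PDGFRα-SCA1+ fraction, which the labels call mesenchymal, summed to 261 to 462 over 8 mesenchymal markers, against 23849 to 46700.5 in the PDGFRα+SCA1- and 25802 to 28469 in the PDGFRα+SCA1+ fraction, and to 2565 to 2877 over 6 endothelial markers, against at most 24.7 in the other fractions; they are named here by their gate. In the PDGFRα-SCA1+ sample of mouse E, 6 ductal markers summed to 3779, of which Spp1 made up 3493, whereas the sum was 79.5 in the lowest of the 3 mice. Hepatocyte markers summed to 15779 to 20391 and erythroid markers to 6388 to 8038 in SCA1+Msc day 0, against 4134 to 5225 and 3890.4 to 3961 in DC day 0, and after culture the erythroid sum was at most 1.81 in any group. Mesenchymal markers summed to 2.20 to 15.6 in the co-cultured organoids, against 28797 to 29913 in the SCA1+Msc across the membrane, with Lrat and Thy1 at 0. In such bulk samples, fewer cells of a type and less RNA per cell cannot be told apart.

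Positions on GRCm38 (GENCODE M21 gene spans, all members but Smad7) were as follows: Tgfb1 at chr7:25687002-25705077, Tgfb2 at chr1:186622792-186705989, Tgfb3 at chr12:86056745-86079041, Tgfbr1 at chr4:47353222-47414931, Tgfbr2 at chr9:116084293-116175360, Tgfbr3 at chr5:107106570-107289629, Tgfbi at chr13:56609523-56639562 and Ltbp1 at chr17:75005568-75392512. Reads were counted over all exons of a gene. The library kit does not mark strand, and non-coding genes on the opposite strand share 7.60% and 4.82% of the exon bases of Tgfb3 and 2.14% of those of Tgfb2, while Gm43422 on the same strand shares 4.54% of those of Tgfbr3. Reads from those stretches cannot be assigned to 1 gene.

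The promoters of 3 members are shown because results below turn on them: Tgfb1 and Tgfb2 as the ligands with the lowest and the highest level in DCs, and Tgfbi as the member with the largest difference. The bases are the reference sequence before the start site from RefSeq (GRCm38.p6), read 5′ to 3′ on the strand of the gene, with motif matches in capitals. The motifs searched on both strands were the TATA box TATAAA, the GC box GGGCGG, the cyclic AMP response element TGACGTCA, the AP-1 site TGANTCA and the SMAD box CAGAC, and no match overlapped another in these stretches. The Tgfb1 stretch spans chr7:25686752-25687001 on the plus strand, that of Tgfb2 chr1:186705990-186706239 on the minus strand and that of Tgfbi chr13:56609336-56609522 on the plus strand, shorter because an annotated transcript starts upstream of the RefSeq start.
Tgfb1: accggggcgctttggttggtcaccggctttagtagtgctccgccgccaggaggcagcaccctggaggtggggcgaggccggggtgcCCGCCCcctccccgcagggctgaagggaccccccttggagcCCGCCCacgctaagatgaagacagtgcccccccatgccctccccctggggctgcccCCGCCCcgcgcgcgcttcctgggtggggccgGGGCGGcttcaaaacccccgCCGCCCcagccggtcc
Tgfb2: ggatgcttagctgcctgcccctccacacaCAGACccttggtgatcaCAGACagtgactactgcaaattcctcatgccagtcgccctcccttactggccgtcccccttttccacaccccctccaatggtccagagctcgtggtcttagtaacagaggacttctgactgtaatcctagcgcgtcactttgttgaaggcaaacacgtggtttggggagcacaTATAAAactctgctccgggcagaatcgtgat
Tgfbi: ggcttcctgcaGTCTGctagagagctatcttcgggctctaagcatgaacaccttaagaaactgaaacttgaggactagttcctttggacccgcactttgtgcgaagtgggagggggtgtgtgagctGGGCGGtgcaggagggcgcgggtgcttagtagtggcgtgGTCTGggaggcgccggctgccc
The 250 bases before the Tgfb1 start held 5 GC boxes, at positions -164, -123, -67, -36 and -16 from the start, and no TATA box. The Tgfb2 stretch held a TATA box at -31 and SMAD boxes at -221 and -204, and no GC box. The Tgfbi stretch held a GC box at -124 and SMAD boxes at -239 and -85. Of 32851 RefSeq promoter windows of 250 bases, 32.74% held a GC box, 12.37% a TATA box and 42.19% a SMAD box, so a SMAD box is a common find. Matches to the cyclic AMP response element (1.55% of windows) and the AP-1 site (6.75%) were not in these 3 stretches. A match of letters is a description and says nothing of binding.

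To ask which liver cells carry transcripts of the ligands and which those of the receptors, the sorted fractions were compared in a linear model (limma) on log2 of the deposited value plus 1, with p-values adjusted over the 17028 genes tested. A gene passed at an adjusted p under 0.05, and log2 fold changes are given ± SE. All 9 members were tested, without loss to the filter on low values. In the PDGFRα+SCA1+ fraction 7 of the 9 members rose above the DC level, where 23.8% of all genes were called in either direction and 9.85% were called higher; the median member log2 fold change was 2.94, against -0.28 over all genes tested. In the PDGFRα+SCA1- fraction 7 members were likewise higher than in DCs, against a background of 28.8% called and 9.98% called higher, with medians of 2.32 and -0.47. In the PDGFRα-SCA1+ fraction 6 members were higher and 1 lower than in DCs (22.8% of all genes called, 11.5% higher and 11.3% lower), with medians of 2.20 and -0.045. These 3 comparisons share the DC samples.

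No member passed between the PDGFRα+SCA1+ and the PDGFRα+SCA1- fraction, where 0.587% of all genes did and 1985 had an unadjusted p under 0.05. The PDGFRα-SCA1+ fraction had 1 member higher and 4 lower than the PDGFRα+SCA1+ fraction (18.8% of all genes called, 10.9% higher and 7.86% lower), and 4 lower than the PDGFRα+SCA1- fraction (21.5% called, 7.24% lower). A fit was also made without the PDGFRα-SCA1+ sample of mouse E, in which Spp1 made up most of the ductal marker sum. There 7 members passed against DCs, 3 against the PDGFRα+SCA1+ fraction and 4 against the PDGFRα+SCA1- fraction. The count against the PDGFRα+SCA1+ fraction was also 3 without the PDGFRα+SCA1+ sample of mouse A or E. Quantile normalization moved the share of higher genes among all calls from 34.6% to 46.1% for the PDGFRα+SCA1- fraction against DCs, and for the PDGFRα-SCA1+ fraction from 58.1% to 45.7% against the PDGFRα+SCA1+ and from 66.3% to 50.4% against the PDGFRα+SCA1- fraction.

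The ligands divided the sorted cells into 3 patterns. Values are given in the order of mice A, E and F, on the scale the authors deposited, which is close to TPM, transcripts scaled to gene length and depth. Tgfb1, the ligand best known from platelets and immune cells, was lowest in DCs, at 5.598, 9.68 and 11.7. It was at 54.9, 58.1 and 32.5 in the PDGFRα+SCA1- fraction, at 33.7, 24.7 and 40.3 in the PDGFRα+SCA1+ fraction and highest in the PDGFRα-SCA1+ fraction, at 66.5, 74.5 and 99.96. No stromal sample overlapped the DCs, and the lowest PDGFRα-SCA1+ sample lay above the highest of each PDGFRα+ fraction. Tgfb1 had a log2 fold change over DCs of 1.79 ± 0.37 (adjusted p = 0.00356) in the PDGFRα+SCA1+ fraction, 2.32 ± 0.37 (adjusted p = 0.000525) in the PDGFRα+SCA1- fraction and 3.06 ± 0.37 (adjusted p = 6.82e-05) in the PDGFRα-SCA1+ fraction. Platelet markers summed over 4 genes to 18.8 to 24.8 in DCs, 36.7 to 56.3 in the PDGFRα+SCA1-, 61.98 to 104 in the PDGFRα+SCA1+ and 9.55 to 28.7 in the PDGFRα-SCA1+ fraction, with Ppbp at 0 in the first 3 of these groups. Macrophage and leukocyte markers summed over 7 genes to 13.7 to 74.3 in DCs and 265 to 333 in the PDGFRα-SCA1+ fraction. They summed to 32.0 to 104 in the PDGFRα+SCA1- and 72.4 to 210 in the PDGFRα+SCA1+ fraction. Mean Tgfb1 was 48.5 and 32.9 in these PDGFRα+ fractions. By limma it did not pass between them (-0.53 ± 0.37, adjusted p = 0.645). The endothelial markers given above were also highest in the PDGFRα-SCA1+ fraction. The part of these markers in the result was not tested.

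Tgfb1 was also higher in the PDGFRα-SCA1+ than in the PDGFRα+SCA1+ fraction, by a log2 fold change of 1.27 ± 0.37 (adjusted p = 0.0311). That call was lost after quantile normalization (adjusted p = 0.181) and without any 1 of the PDGFRα+SCA1+ samples of mice A and E or the PDGFRα-SCA1+ samples of mice E and F (adjusted p up to 0.121).

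Tgfb2, a ligand that needs betaglycan for efficient receptor binding, was the ligand with the highest value in DCs, at 152, 80.4 and 142. It measured 69.9, 93.1 and 140.2 in the PDGFRα+SCA1- fraction, 58.5, 76.5 and 77.7 in the PDGFRα+SCA1+ fraction and 51.1, 61.6 and 56.3 in the PDGFRα-SCA1+ fraction. On the deposited scale the DC values overlapped those of the PDGFRα+SCA1- fraction but not those of the other fractions. With the authors' scaling undone to TPM, the DC and PDGFRα+SCA1+ values overlapped too. The DC sample of mouse E was then at 80.69, below the PDGFRα+SCA1+ samples of mice E (81.42) and F (80.78). It passed as lower in the PDGFRα-SCA1+ fraction than in DCs, with a log2 fold change of -1.08 ± 0.32 (adjusted p = 0.0278), but not in the PDGFRα+SCA1+ fraction (-0.76 ± 0.32, adjusted p = 0.109) or the PDGFRα+SCA1- fraction (-0.31 ± 0.32, adjusted p = 0.509). The call was lost with an untrended variance prior (adjusted p = 0.0641) and without the DC or the PDGFRα-SCA1+ sample of mouse A or of mouse F (adjusted p up to 0.121).

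Tgfb3, a ligand expressed by many mesenchymal cells, separated the PDGFRα+ fractions from the rest. It was at 115, 234 and 234 in the PDGFRα+SCA1- fraction and 202, 225 and 153 in the PDGFRα+SCA1+ fraction, against 26.2, 14.3 and 21.5 in DCs and 15.5, 15.3 and 11.4 in the PDGFRα-SCA1+ fraction. The lowest PDGFRα+ sample lay above every sample of the other groups. Over DCs, the log2 fold change was 3.19 ± 0.35 (adjusted p = 2.75e-05) with SCA1 and 3.14 ± 0.35 (adjusted p = 2.97e-05) without, and for PDGFRα-SCA1+ against the PDGFRα+SCA1+ fraction it was -3.68 ± 0.35 (adjusted p = 1.59e-05), and against the PDGFRα+SCA1- fraction -3.64 ± 0.35 (adjusted p = 1.69e-05).

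As a share of the summed level of the ligands in a sample, Tgfb2 made up 80.3% ± 2.91 in DCs (SD, n = 3), Tgfb3 made up 55.4% ± 6.62 in the PDGFRα+SCA1- and 64.7% ± 7.17 in the PDGFRα+SCA1+ fraction, and Tgfb1 made up 52.9% ± 5.81 in the PDGFRα-SCA1+ fraction. On the deposited scale the ligand named led in every mouse. The deposited values compare genes only within a factor of 0.739 to 1.351 for these ligands, because of how they were scaled, and with that scaling undone the 4 shares were 81.7% ± 2.58, 54.4% ± 5.53, 63.6% ± 5.78 and 51.4% ± 6.43. In the PDGFRα-SCA1+ sample of mouse E, Tgfb1 did not lead on that scale, with 44.1% against 45.1% for Tgfb2. The summed level of the 3 ligands ran from 104 to 184 in DCs, 240.1 to 407 in the PDGFRα+SCA1-, 271 to 326 in the PDGFRα+SCA1+ and 133 to 168 in the PDGFRα-SCA1+ fraction.

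**Figure D1:**
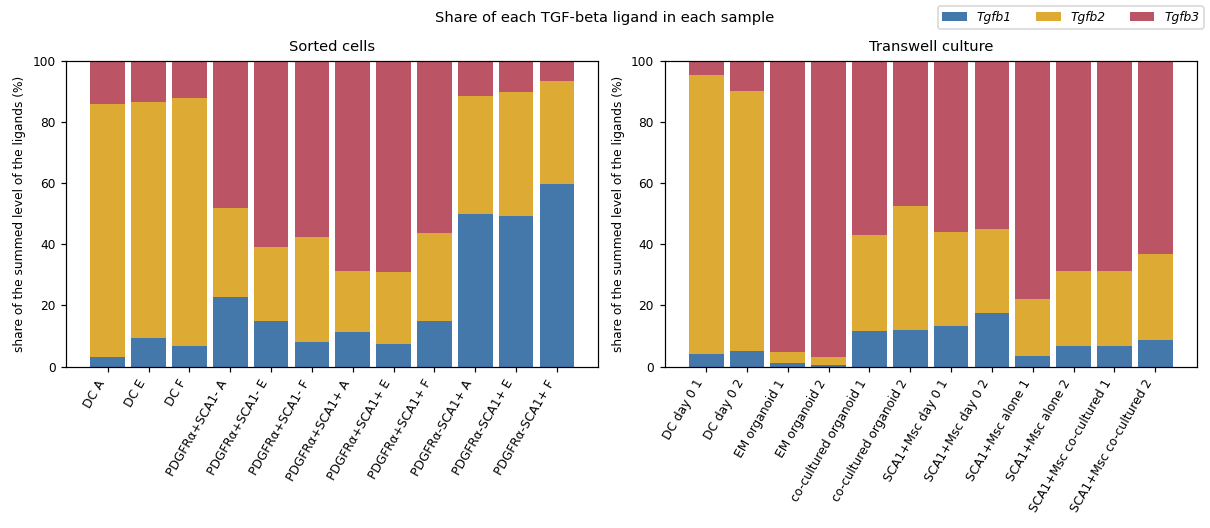
Share of Tgfb1, Tgfb2 and Tgfb3 in the summed level of the ligands (%, vertical axis) in each sample (bars), with sorted cells of mice A, E and F on the left and the transwell samples on the right. Tgfb2 fills most of every DC bar, Tgfb3 at least 95.2% of the EM organoid bars, and Tgfb1 at least 49.2% of the PDGFRα-SCA1+ bars.

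Of the receptors, Tgfbr1, the kinase that phosphorylates SMAD2 and SMAD3, measured 54.1, 70.5 and 42.5 in DCs, 62.1, 95.5 and 69.5 in the PDGFRα+SCA1- fraction, 68.00, 81.1 and 50.3 in the PDGFRα+SCA1+ fraction and 37.8, 18.3 and 28.2 in the PDGFRα-SCA1+ fraction. Only the last group did not overlap the others. Its log2 fold change in the PDGFRα-SCA1+ fraction was -1.24 ± 0.34 (adjusted p = 0.023) against the PDGFRα+SCA1+ fraction, -1.43 ± 0.34 (adjusted p = 0.00999) against the PDGFRα+SCA1- fraction and -0.99 ± 0.34 (adjusted p = 0.0561) against DCs. The call against the PDGFRα+SCA1- fraction was lost when only those groups were fitted (adjusted p = 0.0532), that against the PDGFRα+SCA1+ fraction was lost without the PDGFRα+SCA1+ sample of mouse A or E or the PDGFRα-SCA1+ sample of mouse E (adjusted p up to 0.0959), and the one against DCs was gained with a higher minimum value or quantile normalization.

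Tgfbr2, the receptor that binds ligand first, was at 54.3, 87.6 and 65.1 in DCs, which was the lowest group. It was at 195, 120.2 and 278 in the PDGFRα+SCA1-, 186, 125 and 216 in the PDGFRα+SCA1+ and 258, 347 and 346 in the PDGFRα-SCA1+ fraction. No stromal sample overlapped the DCs, and the PDGFRα+ fractions overlapped each other. Over DCs, the log2 fold change was 1.33 ± 0.33 (adjusted p = 0.011), 1.45 ± 0.33 (adjusted p = 0.0058) and 2.20 ± 0.33 (adjusted p = 0.00037) in the PDGFRα+SCA1+, PDGFRα+SCA1- and the PDGFRα-SCA1+ fraction. Without the DC sample of mouse A the first of these had an adjusted p of 0.0515.

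Tgfbr3, the co-receptor betaglycan, was low in DCs, which had 2.86, 3.22 and 2.299. The PDGFRα+SCA1- fraction had 76.3, 109.9 and 99.2, the PDGFRα+SCA1+ fraction 104, 113 and 106 and the PDGFRα-SCA1+ fraction 69.5, 76.5 and 50.7. Each stromal sample lay far above the highest DC sample, and the PDGFRα-SCA1+ samples overlapped those of the PDGFRα+SCA1- fraction by a single value. The log2 fold change over DCs was 4.85 ± 0.28 (adjusted p = 1.84e-07), 4.66 ± 0.28 (adjusted p = 2.92e-07) and 4.12 ± 0.28 (adjusted p = 9.34e-07) in the PDGFRα+SCA1+, PDGFRα+SCA1- and the PDGFRα-SCA1+ fraction.

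The response genes were higher in the stroma. Smad7 was at 13.8, 22.5 and 11.5 in DCs and at 54.1, 105 and 76.9 in the PDGFRα+SCA1-, 105, 122 and 150.2 in the PDGFRα+SCA1+ and 94.4, 60.3 and 94.7 in the PDGFRα-SCA1+ fraction, so no stromal sample overlapped the DCs. Its log2 fold change over DCs was 2.94 ± 0.34 (adjusted p = 4.78e-05) in the PDGFRα+SCA1+, 2.24 ± 0.34 (adjusted p = 0.000398) in the PDGFRα+SCA1- and 2.34 ± 0.34 (adjusted p = 0.000313) in the PDGFRα-SCA1+ fraction, and it did not pass between any stromal fractions. After quantile normalization it passed as lower in the PDGFRα-SCA1+ than in the PDGFRα+SCA1+ fraction (-1.02, adjusted p = 0.03435).

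Tgfbi gave the largest difference among the members. It was at 2669, 4126 and 1918 in the PDGFRα+SCA1- and 1945, 2011 and 1955 in the PDGFRα+SCA1+ fraction, where it ranked between 24 and 66 among all genes of a sample. DCs had 0.395, 3.69 and 3.12, which in mouse A was 7 reads, and the PDGFRα-SCA1+ fraction had 21.8, 8.28 and 27.4. The groups fell into 3 tiers without overlap, with both PDGFRα+ fractions on top. The log2 fold change over DCs was 9.36 ± 0.50 (adjusted p = 9.28e-08) in the PDGFRα+SCA1+, 9.85 ± 0.50 (adjusted p = 7.74e-08) in the PDGFRα+SCA1- and 2.60 ± 0.50 (adjusted p = 0.00222) in the PDGFRα-SCA1+ fraction, and that of the latter was -6.76 ± 0.50 (adjusted p = 2.73e-06) against the PDGFRα+SCA1+ and -7.25 ± 0.50 (adjusted p = 1.75e-06) against the PDGFRα+SCA1- fraction.

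Ltbp1, the latent ligand's matrix anchor, was at 6.204, 6.03 and 11.7 in DCs and 16.96, 12.1 and 25.97 in the PDGFRα-SCA1+ fraction. It was at 85.6, 98.9 and 65.3 in the PDGFRα+SCA1+ and 199.98, 198 and 262 in the PDGFRα+SCA1- fraction. The groups did not overlap, and the PDGFRα+SCA1- fraction had the highest value in all 3 mice. Over DCs the log2 fold change was 3.27 ± 0.36 (adjusted p = 2.87e-05) in the PDGFRα+SCA1+, 4.67 ± 0.36 (adjusted p = 1.75e-06) in the PDGFRα+SCA1- and 1.10 ± 0.36 (adjusted p = 0.0429) in the PDGFRα-SCA1+ fraction. Between PDGFRα+SCA1+ and the PDGFRα+SCA1- fraction it was -1.40 ± 0.36 (adjusted p = 0.132), the largest of the members in that comparison, and did not pass; smooth muscle markers, 129 to 169 in the former and 1236 to 2769 in the latter over 4 genes, moved with it, and their part was not tested. Against the PDGFRα+SCA1+ fraction, the PDGFRα-SCA1+ fraction had a log2 fold change of -2.16 ± 0.36 (adjusted p = 0.00104), and against the PDGFRα+SCA1- fraction -3.56 ± 0.36 (adjusted p = 2.46e-05). The call in the PDGFRα-SCA1+ fraction against DCs was lost in 4 alternative fits (adjusted p up to 0.11) and without the sample of mouse A from either group, the DC sample of mouse E or the PDGFRα-SCA1+ sample of mouse F (adjusted p up to 0.153).

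**Figure D2:**
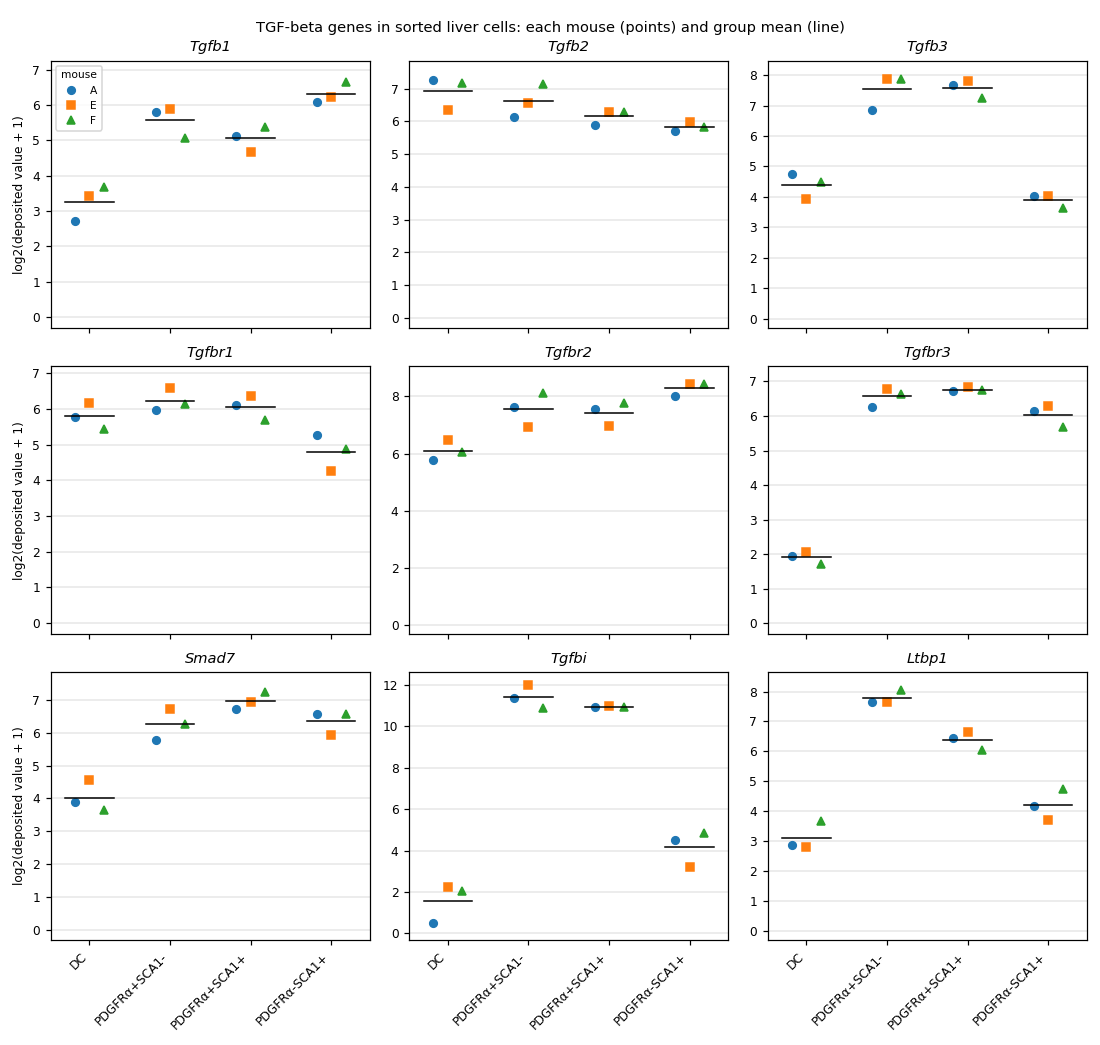
Level of the 9 genes in the sorted cells, as log2 of the deposited value plus 1 (vertical axis, a separate range in each panel), by cell group (horizontal axis), with a point per mouse and a line at the mean of 3. The DC points lie below all stromal points for Tgfb1, Tgfbr2, Tgfbr3, Smad7, Tgfbi and Ltbp1, and Tgfb3 is high in the PDGFRα+ fractions alone.

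Other genes of the pathway were read in 4 lists of 54 different genes, 3 of them in 2 lists. Of 15 genes of ligand latency and activation, 10 were higher and 2 lower in the PDGFRα+SCA1+ fraction than in DCs (median log2 fold change 2.20; 23.8% of all genes called, 9.85% higher). The largest rises were of Mmp2, a gelatinase (8.07), and Emilin1, an elastic fibre protein that binds the TGF-beta precursor (7.14). The falls were of Itgb6 and Itgav, the subunits of the epithelial integrin that frees latent TGF-beta: Itgb6 ran from 80.7 to 167 in DCs and from 0.0189 to 0.0389 in the PDGFRα+SCA1+ fraction, with a log2 fold change of -6.72, and Itgav fell by 1.77.

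In the PDGFRα-SCA1+ fraction against DCs the latency list had 5 genes higher and 4 lower (median 0.46; 22.8% of all genes called, 11.5% higher and 11.3% lower). Lrrc32, which docks latent TGF-beta on the surface of cells such as platelets and endothelium, rose by 7.72, and Nrros, its counterpart in myeloid cells, by 5.66. Itgb6 fell by 6.72 and Thbs1, the thrombospondin that activates latent ligand, fell by 4.22. Against the PDGFRα+SCA1+ fraction 2 of the 15 were higher, Nrros by 3.60 and Furin, the protease that cuts the precursor, by 1.63, and 8 were lower (18.8% of all genes called, 10.9% higher and 7.86% lower), led by Mmp2 (-7.72) and Thbs1 (-6.42), which ran from 14.2 to 27.7 there against 1444 to 1884.

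Of 5 other receptors, the co-receptor endoglin (Eng) and the endothelial receptor Acvrl1 were the 2 that rose over DCs in each stromal fraction, where 9.85%, 9.98% and 11.5% of all genes were higher in the PDGFRα+SCA1+, PDGFRα+SCA1- and the PDGFRα-SCA1+ fraction. Eng was at 3.905 to 14.4 in DCs, 570.2 to 740.4 in the PDGFRα+SCA1+ fraction and 3087 to 4784 in the PDGFRα-SCA1+ fraction, a log2 fold change over DCs of 6.04 and 8.71, and of 2.67 between the stromal fractions. Acvrl1 rose over DCs by 4.17 and 4.61. The endothelial markers were highest in the PDGFRα-SCA1+ fraction, as Eng was, and their part there was not tested, whereas in the PDGFRα+SCA1+ fraction they summed to 4.93 to 24.7 against 5.18 to 11.1 in DCs.

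Of 15 SMADs and intracellular regulators, 3 were higher and 4 lower in the PDGFRα+SCA1+ fraction against DCs, with a median of -0.67 (23.8% of all genes called, 9.85% higher). Bambi, a decoy receptor, rose by 2.34 and Pmepa1, an induced inhibitor, by 2.07. Tgif1, a co-repressor, fell by 2.19 and Smad2, a signal carrier, fell by 1.84. In the PDGFRα-SCA1+ fraction 2 were higher than in DCs, Fkbp1a, which binds TGFBR1, by 1.55 and Bambi by 1.46, and 2 were lower, Smad3 (-2.66) and Tgif1 (-2.45), so 4 of 15 passed where 22.8% of all genes did. Smad3, the other signal carrier, was at 228 to 332 in DCs and 27.6 to 62.5 in the PDGFRα-SCA1+ fraction.

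The list of 22 target genes had 14 genes higher and 1 lower in the PDGFRα+SCA1+ fraction than in DCs (median 3.03), 16 genes higher and 0 lower in the PDGFRα+SCA1- fraction (median 2.95) and 7 genes higher and 3 lower in the PDGFRα-SCA1+ fraction (median 0.93). Of all genes, 9.85%, 9.98% and 11.5% were higher in these comparisons. The largest rises in the PDGFRα+SCA1+ fraction were of the fibrillar collagens Col3a1 (8.60) and Col1a1 (8.59), which also define mesenchymal cells, and the fall was of the cell cycle inhibitor Cdkn2b (-2.91). In the PDGFRα-SCA1+ fraction the rises were led by the transcription factors Snai2 (6.18) and Snai1 (5.74), and the falls by fibronectin, Fn1 (-3.84), and Cdkn2b (-3.29). Between the PDGFRα+ fractions 2 targets passed (0.587% of all genes called), both lower in the PDGFRα+SCA1+ fraction: Postn, a matrix protein (-3.36), and Acta2, smooth muscle actin (-3.25), which ran from 103 to 137 against 808 to 1708.

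To ask how the ligands and receptors of both compartments stand before and after culture, the transwell samples were compared in the same way. The scale was log2 of TPM plus 1, over 18136 genes tested. With 2 samples a group, values are given as replicates 1 and 2. Freshly sorted SCA1+Msc had 7 members higher and 1 lower than fresh DCs (46.1% of all genes called, 21.4% higher and 24.7% lower). EM organoids had 2 members higher and 5 lower than DC day 0 (44.4% called, 27.1% higher and 17.2% lower), and co-cultured organoids had 4 higher and 3 lower (42.3% called, 23.2% higher and 19.1% lower). The share of members called against DC day 0 was thus 7 of 9 in each, on a background in which over 4 in 10 genes were called. Without replicate 1 of DC day 0, 4 members passed in co-cultured organoids. Hepatocyte markers, at 1339 to 1404 in EM and 153 to 347 in co-cultured organoids, and the erythroid markers were lower than in DC day 0 and moved with these comparisons, and their part was not tested. Between the cultures of DCs, 4 members were higher and 1 lower in co-cultured than in EM organoids (12.9% called, 5.73% higher and 7.21% lower), and 3 members passed without any 1 of the 4 organoid samples.

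In the SCA1+Msc, 1 member was higher and 4 were lower after 15 days alone than on day 0 (44.8% called, 27.4% higher and 17.5% lower), and the same numbers after co-culture (43.3% called, 26.0% higher and 17.3% lower), where 3 members passed without replicate 2 of the co-cultured SCA1+Msc. No member passed between SCA1+Msc co-cultured and alone by limma, where 23 genes did (0.127%) and 1263 had an unadjusted p under 0.05, Tgfbi among them. Across the membrane, 6 members were higher in the SCA1+Msc than in the organoids (36.7% called, 17.7% higher). The comparisons with DC day 0 share its 2 samples, and those with SCA1+Msc day 0 share that group's. Medians of the member log2 fold changes were -0.70 in EM organoids and -0.44 in co-cultured organoids against DC day 0, beside 0.12 and 0 over all genes, and -0.42 and -0.66 in SCA1+Msc alone and co-cultured against day 0, beside 0.18 and 0.17.

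Culture exchanged the leading ligand of the ductal cells. Tgfb2 was at 146 and 127 TPM in DC day 0, 7.12 and 6.06 in EM organoids and 14.7 and 15.9 in co-cultured organoids. Every organoid sample was far below the fresh cells, and the co-cultured samples were above the EM samples. Against DC day 0, the log2 fold change was -4.18 ± 0.17 (adjusted p = 3.29e-07) in EM and -3.07 ± 0.17 (adjusted p = 1.67e-06) in co-cultured organoids, and 1.10 ± 0.17 (adjusted p = 0.00315) between the organoids.

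Tgfb3 moved the other way. It was at 7.66 and 15.1 TPM in DC day 0, 193 and 234 in EM organoids and 26.6 and 18.7 in co-cultured organoids. EM organoids exceeded every other group of the experiment, SCA1+Msc included. The log2 fold change was 4.18 ± 0.31 (adjusted p = 6.77e-06) for EM organoids and 0.98 ± 0.31 (adjusted p = 0.0294) for co-cultured organoids against DC day 0, and -3.20 ± 0.31 (adjusted p = 0.000203) for co-cultured against EM organoids. The smaller rise in co-cultured organoids was lost in 4 alternative fits (adjusted p up to 0.078) and without replicate 1 of DC day 0 or of the co-cultured organoids (adjusted p up to 0.216).

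Tgfb1 was low in ductal cells throughout, at 6.71 and 7.77 TPM in DC day 0, 2.64 and 1.24 in EM organoids and 5.41 and 4.71 in co-cultured organoids. It fell in EM organoids, with a log2 fold change of -1.52 ± 0.30 (adjusted p = 0.00255), and did not pass in co-cultured organoids (-0.44 ± 0.30, adjusted p = 0.278). The difference between the organoids, 1.08 ± 0.30 (adjusted p = 0.044), was lost in 3 alternative fits (adjusted p up to 0.0912) and without replicate 2 of the EM organoids or either co-cultured sample (adjusted p up to 0.253). The sum of the macrophage and leukocyte markers took the same order, at 128 to 159.9 in DC day 0, 19.6 to 21.3 in EM and 72.9 to 89.1 in co-cultured organoids. It rests on few genes in the organoids, as 5 of the 7 were at 0 in EM and 3 in co-cultured organoids. In SCA1+Msc it was 184 to 238 on day 0, 377 to 606 alone and 258 to 285 co-cultured, while Tgfb1 fell there. The part of these markers was not tested. Of the summed ligand level, Tgfb2 held 87.9% ± 4.48 in DC day 0 (SD, n = 2) and Tgfb3 held 96.1% ± 1.26 in EM and 52.2% ± 6.69 in co-cultured organoids. The sum itself ran from 149.6 to 160.5 TPM in DC day 0, 203 to 241 in EM organoids and 39.3 to 46.7 in co-cultured organoids, so the latter had the lowest ligand transcript level of the 6 groups.

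The SCA1+Msc carried all 3 ligands. Tgfb1 was at 34.6 and 39.1 TPM on day 0, 6.93 and 10.3 after culture alone and 8.802 and 10.7 after co-culture, which is a fall in both, with log2 fold changes of -2.0 ± 0.30 (adjusted p = 0.000541) and -1.82 ± 0.30 (adjusted p = 0.000997). Tgfb2 was at 79.3 and 60.4 on day 0, 37.7 and 36.2 alone and 32.2 and 34.5 co-cultured and fell likewise, with -0.89 ± 0.17 (adjusted p = 0.00259) and -1.03 ± 0.17 (adjusted p = 0.00114). Tgfb3, the ligand with the highest level there, was at 144 and 122 on day 0, 158 and 103 alone and 89.8 and 77.4 co-cultured, and did not pass in either, with -0.057 ± 0.31 (adjusted p = 0.934) and -0.66 ± 0.31 (adjusted p = 0.117). In co-culture Tgfb3 passed as lower with only those groups fitted (adjusted p = 0.0333). The hepatocyte and erythroid RNA of the day 0 samples moved with these falls, and endothelial, ductal and platelet markers were also lower after culture. Endothelial markers summed to 217 to 229 on day 0, 91.8 to 151 alone and 118 to 177 co-cultured. Mesenchymal, smooth muscle, and macrophage and leukocyte markers were higher after culture. The part of these markers was not tested.

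Between the fresh cells, the log2 fold change of SCA1+Msc over DCs was 2.20 ± 0.30 (adjusted p = 0.000254) for Tgfb1, -0.97 ± 0.17 (adjusted p = 0.00141) for Tgfb2 and 3.50 ± 0.31 (adjusted p = 1.61e-05) for Tgfb3. After co-culture, the SCA1+Msc exceeded the organoids across the membrane in Tgfb2 by 1.08 ± 0.17 (adjusted p = 0.000851) and in Tgfb3 by 1.86 ± 0.31 (adjusted p = 0.00103), while Tgfb1 did not pass (0.82 ± 0.30, adjusted p = 0.0577). Tgfb1 did pass with a higher minimum value, an untrended variance prior or only those groups fitted (adjusted p from 0.0417 to 0.0487).

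**Figure D3:**
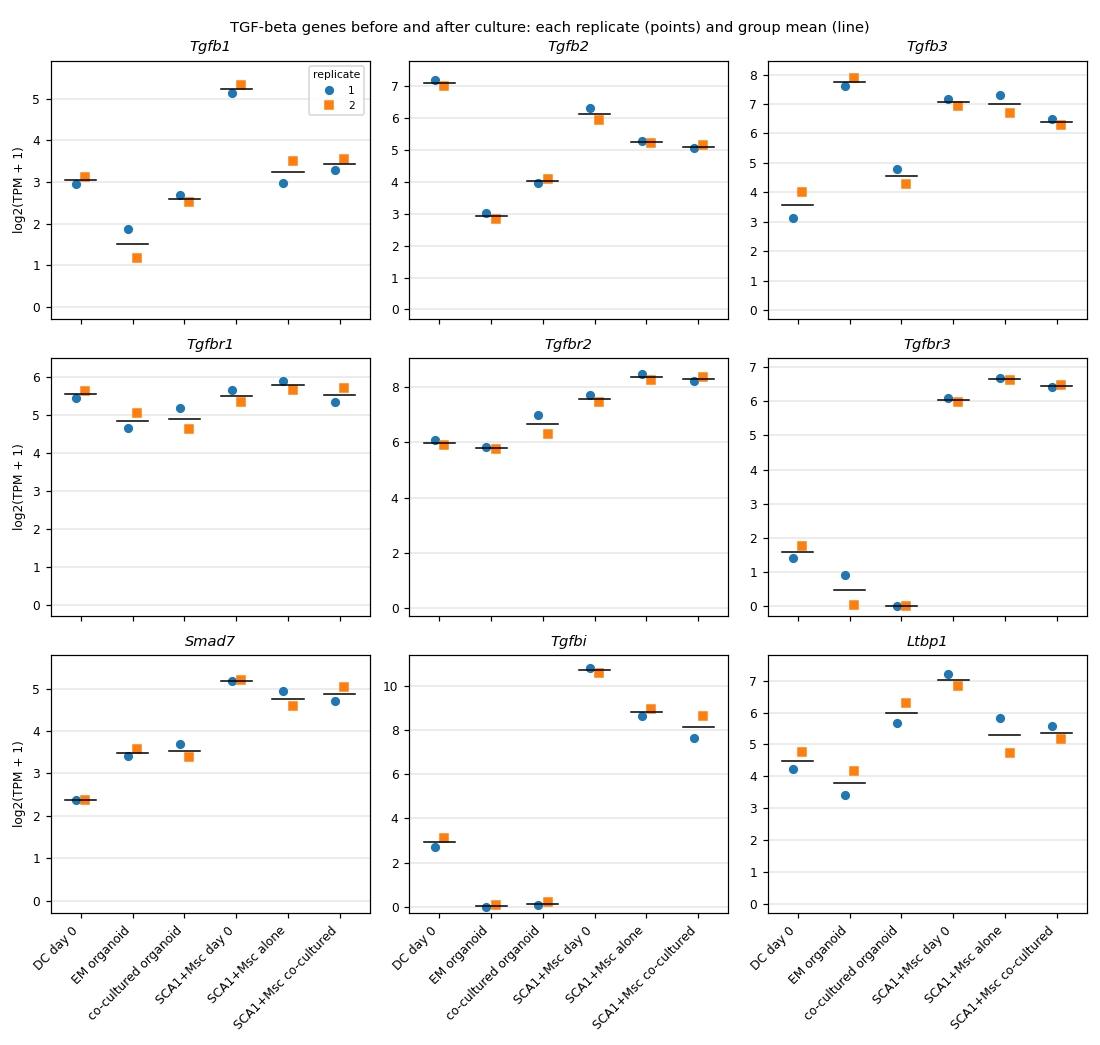
Level of the 9 genes in the transwell experiment, as log2 of TPM plus 1 (vertical axis, a separate range in each panel), by group (horizontal axis), with a point per replicate and a line at the mean of 2. Tgfb2 falls and Tgfb3 climbs from DC day 0 to EM organoids, Tgfbr3 and Tgfbi are at most 0.878 TPM in the organoids, and Ltbp1 is higher in co-cultured than in EM organoids.

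Both signalling receptors stayed measurable in organoids. Tgfbr1 was at 42.5 and 48.6 TPM in DC day 0, 23.9 and 32.3 in EM and 35.2 and 23.6 in co-cultured organoids, with the organoid samples below the fresh ones. Its log2 fold change was -0.69 ± 0.24 (adjusted p = 0.0415) in EM and -0.64 ± 0.24 (adjusted p = 0.0582) in co-cultured organoids, on either side of the threshold. The former was lost in 3 alternative fits (adjusted p up to 0.0662) and without either DC day 0 sample or replicate 1 of the EM organoids (adjusted p up to 0.235).

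Tgfbr2 was at 66.2 and 59.1 TPM in DC day 0, 55.4 and 52.7 in EM organoids and 126 and 78.5 in co-cultured organoids, where both samples were above all other ductal samples but far apart. The log2 fold change of co-cultured organoids was 0.66 ± 0.20 (adjusted p = 0.0241) against DC day 0 and 0.87 ± 0.20 (adjusted p = 0.0198) against EM organoids, and that of EM organoids against DC day 0 was -0.21 ± 0.20 (adjusted p = 0.445). The rise over DC day 0 was lost in 3 alternative fits (adjusted p up to 0.108) and without either DC day 0 sample or replicate 1 of the co-cultured organoids (adjusted p up to 0.171), and the rise over EM organoids with an untrended variance prior (adjusted p = 0.0567) and without either EM sample or replicate 1 of the co-cultured organoids (adjusted p up to 0.11).

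Tgfbr3 was low in fresh DCs, at 1.65 and 2.39 TPM (93 and 98 reads), and was not detected in the co-cultured organoids, with 0 reads in both samples. Against 3 reads per library, the most that a count of 0 allows at 95% confidence for counting error alone, it was at least 33.0-fold lower there. The EM organoids had 0.878 and 0.0239 TPM, which was 41 reads in replicate 1 and 1 in replicate 2, so they disagreed. The fitted log2 fold changes, -1.11 ± 0.29 (adjusted p = 0.0112) in EM and -1.58 ± 0.29 (adjusted p = 0.00179) in co-cultured organoids, depend on the pseudocount. Mesenchymal markers, 62.9 to 80.3 in DC day 0, 1.11 to 6.29 in EM and 2.203 to 15.6 in co-cultured organoids, and endothelial markers, 31.1 to 31.3, 2.93 to 6.80 and 8.202 to 8.62, were lower along with Tgfbr3, a gene high in the stroma, and their part was not tested. The former call was lost when only those groups were fitted (adjusted p = 0.0668) and without replicate 2 of DC day 0 or of the EM organoids (adjusted p up to 0.0729).

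In the SCA1+Msc, Tgfbr2 was at 209 and 176 TPM on day 0, 353 and 305 alone and 301 and 328 co-cultured, a rise of 0.78 ± 0.20 (adjusted p = 0.0107) and 0.71 ± 0.20 (adjusted p = 0.0166) on the log2 scale. The rise alone was lost without replicate 2 of day 0 or replicate 1 of the culture (adjusted p up to 0.0719), and the rise in co-culture after quantile normalization (adjusted p = 0.0521) or without replicate 2 of either group (adjusted p up to 0.0869). Smooth muscle markers moved with it, from 567 to 778 on day 0 to 3123 to 3424 alone and 3515 to 3883 co-cultured, and their part was not tested. Tgfbr3 was at 68.00 and 62.5 on day 0, 102 and 98.9 alone and 84.1 and 88.2 co-cultured, and Tgfbr1 at 49.3 and 39.5 on day 0, 58.8 and 49.3 alone and 39.7 and 50.9 co-cultured, and neither passed against day 0. For SCA1+Msc alone, Tgfbr3 had 0.61 ± 0.29 (adjusted p = 0.116). It passed as higher on the deposited RPKM values (adjusted p = 0.0384) and with only those groups fitted (adjusted p = 0.02675). Across the membrane, SCA1+Msc exceeded organoids by 1.65 ± 0.20 (adjusted p = 0.000122) in Tgfbr2, and by 6.45 ± 0.29 (adjusted p = 1.45e-07) in Tgfbr3, a size that the pseudocount sets because the organoids had 0 reads (9.75 with a pseudocount of 0.1), whereas Tgfbr1 did not pass (0.62 ± 0.24, adjusted p = 0.0713). The Tgfbr1 difference passed after quantile normalization (adjusted p = 0.0483). Between the fresh cells, SCA1+Msc exceeded DCs by 1.60 ± 0.20 (adjusted p = 0.000147) in Tgfbr2 and 4.46 ± 0.29 (adjusted p = 2.3e-06) in Tgfbr3, and Tgfbr1 had -0.040 ± 0.24 (adjusted p = 0.938).

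Of the response genes, Smad7 was lowest in fresh DCs, at 4.14 and 4.14 TPM, and was at 9.58 and 10.9 in EM and 11.9 and 9.39 in co-cultured organoids, a rise of 1.13 ± 0.22 (adjusted p = 0.00225) and 1.17 ± 0.22 (adjusted p = 0.00194) on the log2 scale. The organoids overlapped each other, with 0.045 ± 0.22 (adjusted p = 1) between them. In SCA1+Msc it was at 35.01 and 35.6 on day 0, 29.7 and 22.9 alone and 25.05 and 31.8 co-cultured, and neither culture passed against day 0. After quantile normalization Smad7 passed as lower in SCA1+Msc alone (-0.62, adjusted p = 0.04965). SCA1+Msc exceeded DCs by 2.82 ± 0.22 (adjusted p = 6.81e-06) on day 0 and the organoids by 1.33 ± 0.22 (adjusted p = 0.000883) in co-culture.

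Tgfbi fell to a few reads in cultured ductal cells, with fitted log2 fold changes of -2.88 ± 0.30 (adjusted p = 5.08e-05) in EM and -2.79 ± 0.30 (adjusted p = 6.78e-05) in co-cultured organoids that the pseudocount limits. Fresh DCs had 5.597 and 7.699 TPM, about 129 reads in each, EM organoids had 0 and 1 reads, and co-cultured organoids had 1 and 3. Scaled to counted reads, the organoid level was 0.437% of that of DC day 0 in EM (exact 95% interval for counting error only, 0.011 to 2.46%) and 1.5% in co-culture (0.405 to 3.88%). The intervals overlap, and a difference between the organoids was not detectable at this depth. The mesenchymal markers given for Tgfbr3 were lower in the organoids along with Tgfbi, and their part was not tested. In SCA1+Msc, Tgfbi was at 1797 and 1555 TPM on day 0, 401 and 503 alone and 198 and 398 co-cultured, without overlap between fresh and cultured cells. It fell in both, with log2 fold changes of -1.89 ± 0.30 (adjusted p = 0.0007) and -2.57 ± 0.30 (adjusted p = 0.000116), and the cultures differed by -0.68 ± 0.30 (adjusted p = 0.711), short of the threshold. Tgfbi in SCA1+Msc exceeded that in DCs by 7.79 ± 0.30 (adjusted p = 1.12e-07) on day 0 and that in organoids by 8.01 ± 0.30 (adjusted p = 4.77e-08) in co-culture, on a scale where the pseudocount limits the latter, and Ltbp1 exceeded that in DCs by 2.53 ± 0.40 (adjusted p = 0.000604) on day 0.

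Ltbp1 was at 17.6 and 26.00 TPM in DC day 0, 9.72 and 16.8 in EM organoids and 50.3 and 77.4 in co-cultured organoids. The co-cultured samples stood above every other ductal sample, by a log2 fold change of 1.5 ± 0.40 (adjusted p = 0.0129) over DC day 0 and 2.20 ± 0.40 (adjusted p = 0.00609) over EM organoids. The first call was lost without replicate 1 of DC day 0 or replicate 2 of the co-cultured organoids (adjusted p up to 0.0957), the other without replicate 1 of the EM or replicate 2 of the co-cultured organoids (adjusted p up to 0.0556). In SCA1+Msc it fell from 147 and 113 on day 0 to 55.6 and 25.8 alone and 46.5 and 34.8 co-cultured, with -1.74 ± 0.40 (adjusted p = 0.00593) and -1.65 ± 0.40 (adjusted p = 0.00784), the latter lost without replicate 2 of the co-cultured SCA1+Msc (adjusted p = 0.0559). Ltbp1 in co-cultured organoids and in the SCA1+Msc across from them did not differ past the threshold (-0.62 ± 0.40, adjusted p = 0.273). Mesenchymal markers summed to 2.20 to 15.6 in the co-cultured and 1.11 to 6.29 in the EM organoids, and their part was not tested.

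**Figure D4:**
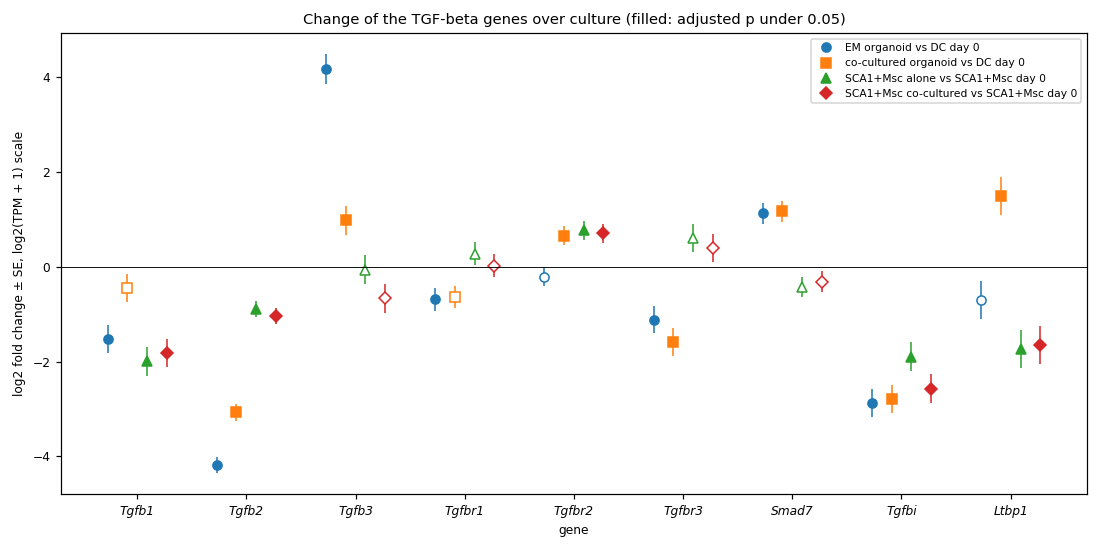
Log2 fold change from day 0 to the end of culture (vertical axis, log2(TPM + 1) scale) of each member (horizontal axis). The groups are EM organoids, co-cultured organoids, SCA1+Msc alone and SCA1+Msc co-cultured, each against its own day 0 group. Bars are 1 SE, and points are filled where the adjusted p was under 0.05. Tgfb2 and Tgfbi fall in all 4 cultures, Tgfb3 rises in the organoids alone, and Ltbp1 rises in co-cultured organoids and falls in the SCA1+Msc.

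Whether the change over co-culture differed between the ductal and the mesenchymal cells was tested as a difference of changes. It was the change of co-cultured SCA1+Msc from day 0 minus the change of co-cultured organoids from day 0. The SCA1+Msc had a further week in culture before the DCs were added, so cell type and culture time cannot be told apart. Of the 9 members 6 passed, 2 higher and 4 lower (28.3% of all genes called, 14.5% higher and 13.8% lower), and 4 to 5 passed without any 1 of the 8 samples. Tgfb2 and Tgfbr3 had the more positive change in SCA1+Msc, with a difference of log2 fold changes of 2.04 ± 0.25 (adjusted p = 0.00039) and 1.98 ± 0.41 (adjusted p = 0.00639). The size for Tgfbr3 rests on 0 reads in both co-cultured organoid samples, and was 4.79 with a pseudocount of 0.1 (adjusted p = 0.0133). Tgfb1, Tgfb3, Smad7 and Ltbp1 had the more positive change in organoids, with -1.37 ± 0.42 (adjusted p = 0.0379), -1.64 ± 0.44 (adjusted p = 0.0212), -1.49 ± 0.31 (adjusted p = 0.00646) and -3.15 ± 0.56 (adjusted p = 0.00306). Tgfbr1, Tgfbr2 and Tgfbi did not pass, and the value for Tgfbi, 0.22, rests on organoid counts of 1 and 3 reads: with a pseudocount of 0.1 it was 2.58 (adjusted p = 0.0123) and with the deposited RPKM values -1.01. The call of Tgfb1 was lost in 3 alternative fits and without any 1 of the 8 samples (adjusted p up to 0.108), and that of Tgfb3 without replicate 1 of DC day 0, the co-cultured organoids or SCA1+Msc day 0 or replicate 2 of the co-cultured SCA1+Msc (adjusted p up to 0.0779).

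In the latency list EM organoids had 2 genes higher and 7 lower and co-cultured organoids 2 genes higher and 8 lower against DC day 0, where 44.4% and 42.3% of all genes were called and 17.2% and 19.1% were lower, and in both the rises were led by Ltbp3, another latent ligand anchor (1.89 and 1.83), and Mmp14, a membrane protease (1.26 and 0.88). The falls in EM organoids were led by Thbs1 (-4.0) and Itgb6 (-3.80), those in co-cultured organoids by Ltbp4 (-3.68) and Thbs1 (-3.45). Against EM organoids, co-cultured organoids had 3 genes of the list higher (12.9% of all genes called, 5.73% higher), with Itgb6 (2.39) and Itgav (1.03), the integrin subunits, in front. Itgb6 was at 160.4 to 252 TPM in DC day 0, 10.9 to 16.6 in EM and 66.5 to 84.1 in co-cultured organoids.

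In co-cultured SCA1+Msc against day 0 the latency list had 4 genes higher and 5 lower (43.3% of all genes called, 26.0% higher and 17.3% lower), with Emilin1 (1.16) and Ltbp3 (0.98) leading the rises and Ltbp4 (-2.89) and Thbs1 (-2.81) the falls. Among the other receptors, Eng and Acvrl1 fell in both organoids, with log2 fold changes of -4.15 and -4.54 for Eng and -1.97 and -1.76 for Acvrl1, and none passed between the organoids. The endothelial markers of the ductal samples, 31.1 to 31.3 on day 0 and at most 8.62 in organoids, moved with them, and their part was not tested. In co-cultured SCA1+Msc Acvr1b, an activin receptor, rose by 1.31 and Acvr2a, another, fell by 0.71.

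Of the 15 SMADs and regulators 2 were higher and 6 lower in each organoid group than in DC day 0, so 8 of 15 passed where 44.4% of all genes did in EM and 42.3% in co-cultured organoids. Pmepa1, induced by TGF-beta and an inhibitor of it, was at 3.32 to 3.902 TPM in DC day 0, 12.4 to 16.9 in EM and 40.1 to 44.6 in co-cultured organoids, with log2 fold changes of 1.75 and 3.23 over day 0 and 1.49 between the organoids (adjusted p = 0.00821). Bambi, the decoy receptor, was at 16.8 to 22.4, 32.9 to 37.1 and 1.32 to 1.66, a rise of 0.82 in EM organoids, while it fell by 3.04 in co-cultured organoids, with -3.86 between them (adjusted p = 6.4e-06). Tgif1 fell in both (-3.01 and -2.59), Skil, a co-repressor, led the falls in EM organoids with it (-2.44), and Fkbp1a was higher in co-cultured organoids than in DC day 0 (0.48) and EM organoids (0.54).

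The target list had 4 genes higher and 9 lower in EM organoids and 5 genes higher and 8 lower in co-cultured organoids against DC day 0, with medians of -0.82 and -0.48, on the same background. Cdkn2b rose in both (2.37 and 2.82), Fn1 was the other leading rise in EM organoids (2.28), and Tgfb1i1, a focal adhesion protein, and Junb, an AP-1 factor, led the falls in each, with -4.67 and -2.82 in EM and -4.69 and -2.47 in co-cultured organoids. Against EM organoids, 3 targets were higher and 1 lower in co-cultured organoids, where 5.73% and 7.21% of all genes were. Cdkn1a, the cell cycle inhibitor p21, was at 201 to 217 TPM in EM and 593 to 654 in co-cultured organoids (1.57 ± 0.12, adjusted p = 3.68e-05). Fn1 was the gene that was lower (-0.82).

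In co-cultured SCA1+Msc the target list had 7 genes higher and 8 lower than on day 0 (43.3% of all genes called, 26.0% higher and 17.3% lower), led by Cdkn2b (3.26) and Timp1, a protease inhibitor (3.25), and, downwards, Junb (-4.40) and Skil (-3.42). In the difference of the changes, it had 9 genes higher and 7 lower (28.3% of all genes called, 14.5% higher and 13.8% lower). Pmepa1 (-4.14) led those with the more positive change in organoids, and Tgfb1i1 (6.01) and Col3a1 (3.65) those with the more positive change in SCA1+Msc.

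The genes whose log2 levels followed each ligand most closely over the 12 samples of an experiment, by Pearson's r, were for Tgfb1 Gbp7 (0.9785), Trim30a (0.9775) and Mef2c (0.9709) in the sorted cells and Fah (0.9694), Procr (0.9613) and Gsn (0.9596) in the transwell experiment. For Tgfb2 they were Mthfd2l (0.9150), Fhit (0.9077) and Cstf3 (0.9070), and Clic4 (0.9817), Rgs5 (0.9706) and Samd4 (0.9704). For Tgfb3 they were Serping1 (0.9889), Col6a5 (0.9877) and Nfatc4 (0.9850), and Nfib (0.9484), Peg13 (0.9433) and Aldh7a1 (0.9413). The 12 samples share groups and, in the sorted cells, mice, so these values describe the order of the groups.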

How the data were processed

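RNA of 24 sorted or cultured samples was read by Smart-seq2 as single reads of an unstranded kit. Per the labels and the study's methods, the authors aligned reads with STAR 2.5.0a to GRCm38, counted exons with featureCounts and scaled the counts. The deposited homeostasis values are named TPM, but the authors divided each value by a column total taken in turn from the 12 columns, so they are treated as a score that differs from TPM by a factor of 0.722 to 1.386. The deposited transwell values are RPKM made by the authors, and were rescaled here to TPM. Counted reads were recovered from the steps between low values (92.93% and 93.08% whole within 0.02 in the 2 experiments, 14.98% in the homeostasis table before its totals were undone). The 4 pooled columns were not used, and 26 gene symbols of the transwell table had turned into dates.

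Log2(value + 1) was fitted with limma 3.58.1 in R 4.3.3 (all 12 samples of an experiment, trended prior), for genes at 1 or more in at least 3 homeostasis or 2 transwell samples, with Benjamini-Hochberg adjustment. The design had assumed TPM in both tables. Tested on simulated data with 200 genes changed by 2 on the log2 scale, the fit recovered 33.5% for PDGFRα+SCA1+ cells against DCs (17028 genes) and 83% for EM organoids against DC day 0 (18136 genes). In the data 4054 and 8045 genes were called in these comparisons. With fewer changed genes the adjustment is stricter, so these shares do not give the sensitivity of the reported fits. The fractions of a mouse are paired by origin (same-mouse deviations correlated at 0.0373 on average, from 0.00395 to 0.0973). Per the study's methods the sorted fractions came from 3 animals, and the transwell DCs and SCA1+Msc from 2 animals each; which of the 2 gave a replicate is not given in the sources used here. Intervals and floors cover counting error only.

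The members and lists were chosen with earlier results of these data known. Named genes were the members, the 2 called genes per list with the largest rise and fall, and the 3 genes most correlated with each ligand; for length, not every gene so named is printed, and a target gene that this rule names is not reported here. Alternatives were the pseudocount, the filter, the scaling, the prior, the samples fitted, the replicate block and leaving out each sample. Promoters came from RefSeq (GRCm38.p6), with windows for 6 of the 9 members.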

Additional observations from a re-analysis of the deposited data

Results flagged for a closer look

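The change over culture differed between co-cultured SCA1+Msc and co-cultured organoids for 6 members, by limma's test of the difference itself (2 samples in each of the 4 groups). The change in SCA1+Msc minus that in organoids, on the log2(TPM + 1) scale, was 2.04 for Tgfb2 (adjusted p = 0.00039), 1.98 for Tgfbr3 (0.00639), -1.37 for Tgfb1 (0.0379), -1.64 for Tgfb3 (0.0212), -3.15 for Ltbp1 (0.00306) and -1.49 for Smad7 (0.00646). Without any 1 of the 8 samples, 4 to 5 members passed, and the Tgfb1 call was lost each time. The value for Tgfbr3 rests on 0 reads in the co-cultured organoids. The SCA1+Msc day 0 samples carried hepatocyte and erythroid RNA, and its part in these differences was not tested. The co-cultured SCA1+Msc also had a further week in culture before the DCs were added, which cannot be told apart from cell type.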

How the results depend on the processing

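Of 1816 alternative values of 135 member results, 1676 kept their direction and side of the threshold, 79 lost a call, 24 gained one and 37 (of 14 results, none of them called) changed sign. Of 30 homeostasis calls 26 held under every setting and 24 also without each sample, and of 49 transwell calls 41 and 36. Changes of sign with the scaling were those of Smad7 in PDGFRα-SCA1+ against PDGFRα+SCA1- cells (-0.22 after quantile normalization and -0.051 with the reused totals undone, with or without a replicate block, the latter fit added after seeing the data), of Tgfbr1 in SCA1+Msc against DCs on day 0 (0.060 after quantile normalization, 0.011 on RPKM) and in co-cultured SCA1+Msc against day 0 (-0.15 and -0.041), and, on RPKM, of the differences of Tgfbr2 (-0.11) and Tgfbi (-1.01). Leaving out 1 sample at a time, log2 fold changes that changed sign ran from -0.29 to 0.21 for Tgfb3 and -0.44 to 0.16 for Tgfbr2 in PDGFRα+SCA1+ against PDGFRα+SCA1- cells, from -0.14 to 0.33 for Smad7 in PDGFRα-SCA1+ against PDGFRα+SCA1- cells, from -0.20 to 0.12 for Tgfbr1 in SCA1+Msc against DCs on day 0, from -0.28 to 0.39 for Tgfbr2 and -0.28 to 0.73 for Tgfbi in the difference of culture changes, from -0.23 to 0.33 for Tgfbr1 and -0.11 to 0.20 for Smad7 in co-cultured against EM organoids, from -0.37 to 0.25 for Tgfb3 in SCA1+Msc alone against day 0, from -0.15 to 0.20 for Tgfbr1 in SCA1+Msc co-cultured against day 0, from -0.079 to 0.43 for Tgfb1, -0.17 to 0.041 for Tgfbr2, -0.070 to 0.29 for Smad7 and -0.46 to 0.62 for Ltbp1 in SCA1+Msc co-cultured against alone. The number of members called ran from 3 to 5 in PDGFRα-SCA1+ against PDGFRα+SCA1+ cells (3 without PDGFRα+SCA1+ of mouse A or E or PDGFRα-SCA1+ of mouse E), from 4 to 6 in co-cultured organoids against DC day 0 (4 without DC day 0 replicate 1), was 3 without any 1 of the organoid samples in co-cultured against EM organoids, and ran from 3 to 5 in co-cultured SCA1+Msc against day 0 (3 without its co-cultured replicate 2). Whether transwell replicate numbers pair samples is not given in the sources used here. Same-number deviations correlated at 0.00505 on average, which cannot decide it, because samples of the same mouse in the homeostasis experiment reached only 0.0373. With the number as a replicate block, 3 calls were lost: Tgfbr1 in EM organoids, Tgfb1 between the organoids (adjusted p = 0.0617) and the Tgfb1 difference (adjusted p = 0.0521). The mouse as a block changed no homeostasis call. Counts over all genes moved most between close groups: for PDGFRα+SCA1+ against PDGFRα+SCA1- cells the main count (0.587% of genes) became 54 genes after quantile normalization, 20 with the block and 4 with only those groups fitted, and for SCA1+Msc co-cultured against alone 23 became 5 with the block and 0 with only those groups. Over the settings that keep all samples, the share of higher genes among the calls moved from 74.0% to between 25% and 88.4% for PDGFRα+SCA1+ against PDGFRα+SCA1- cells and from 73.9% to between 55.9% and 86.7% for SCA1+Msc co-cultured against alone. With only the groups compared, PDGFRα+SCA1+ against DCs rose from 4054 to 6921 and PDGFRα-SCA1+ against PDGFRα+SCA1- fell from 3658 to 2173. Quantile normalization shifted the median of all genes by -0.36 to 0.34 between sorted fractions, and undoing the reused totals by -0.11 to 0.18. Where not named otherwise, the cause was not tested.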
